A study of Mus musculus with 48 samples.

Results

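Enzymes of the route from glucose to lactate were followed through the differentiation of 3T3-L1 cells, a mouse fibroblast line that can become fat cells, with and without knockdown of the nuclear receptor PPARγ. The 10 genes were taken by symbol as HK2, PFKL, PFKP, ALDOA, TPI1, PGK1, PGAM1, ENO1, PKM2 and LDHA, and every probe carrying one of these symbols was kept, whatever its values. The array held 11 such probes for 8 of the 10 genes, out of 24613 probes for 18991 symbols. No probe carried the symbols HK2 or ENO1, and these enzymes are not analysed here.

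Glycolysis splits glucose into pyruvate in the cytosol and yields ATP and NADH, and lactate dehydrogenase turns pyruvate into lactate and so restores NAD+. Phosphofructokinase is the main point of control of the route, while most of the later steps run in either direction according to the supply of their substrates. In fat cells the pathway also feeds fat storage, because dihydroxyacetone phosphate is the precursor of the glycerol backbone of triglycerides and pyruvate leads to the acetyl-CoA from which fatty acids are made.

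The study asked which genes depend on PPARγ during adipogenesis. Cells were transfected at 50 nM with a pool of siRNAs against PPARγ (PPARγ KD) or with pooled non-targeting siRNA (control siRNA) before differentiation. The same schedule applied to all cells, controls included, with 0.5 mM IBMX and 0.25 µM dexamethasone at confluence on day -2 for 48 hours. From day 0 it gave 5 µg/ml insulin with 1 µM rosiglitazone, itself a PPARγ agonist, for 48 hours. RNA was taken on day -2 and daily on days 0 to 6 in 3 replicates for each siRNA, 48 arrays in all. By this schedule day -2 stands at the start of the first treatment and day 0 at the start of insulin and rosiglitazone. Changes since day -2 therefore also include the treatments. Values are log2 signals after background correction and scaling, and each gene is given by its brightest probe unless another is named. A probe was called where limma's test, Bonferroni adjusted over all 24613 probes, gave an adjusted p of at most 0.05, and the SE is that of the fitted difference. RNA came from whole cultures, so fewer cells of a type and less RNA per cell cannot be told apart.

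By the brightest PPARG probe the knockdown was seen on every array. This probe lay between 10.001 and 12.22 in control siRNA cells (median 11.54, n = 24) and between 7.58 and 9.81 in PPARγ KD cells (median 9.35, n = 24), a difference of -2.34 (SE 0.04, limma, Bonferroni adjusted p = 9.48e-34). From day -2 to day 6 it rose by 2.02 in control siRNA cells and by 2.10 in PPARγ KD cells. The dimmest PPARG probe, above background on 8 of 48 arrays, was called lower only from day 3. Probes above background (detection p under 0.01) made up 36.8% to 40.4% of each array in replicates 1 and 2 and 33.4% to 35.4% in replicate 3. All 10 adipocyte markers examined were above background on some arrays. Over the course 10 of 10 genes were called lower in the PPARγ KD (6.74% of all probes were), with a mean log2 level of 6.09 to 11.41 on control arrays and 5.72 to 8.85 on KD arrays. Of the 10 fibroblast markers 9 had a higher mean in the PPARγ KD and 5 genes were called higher (6.37% of all probes were), with a mean level of 11.48 to 13.28 on control and 12.22 to 13.48 on KD arrays. By day, 8 of 14 fibroblast probes were called higher on day 2 (4.74% of all probes), with a median difference of 0.91. On day 6 it was 0 of 14 (0.796%), with a median of 0.20. All 5 macrophage and 4 endothelial marker genes were at background on every array, and so were 3 of 4 muscle markers. The part of these marker differences in the results for the glycolysis enzymes was not tested.

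The promoters of the 4 enzymes whose brightest probe was called on days 4 to 6 are shown, since PPARγ acts on genes as a transcription factor. For a gene with several windows, the one with the most matches to the motifs named next is printed. Each window is 300 bases long, most of them upstream of the start of the gene in RefSeq (build GRCm38.p6), and is written 5′ to 3′ on the strand of the gene. Capitals mark matches on either strand to ACGTG or GCGTG, the core letters of hypoxia response elements, which in part overlap the E-box CACGTG.

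PFKL (chr10:78009758-78010057, minus strand): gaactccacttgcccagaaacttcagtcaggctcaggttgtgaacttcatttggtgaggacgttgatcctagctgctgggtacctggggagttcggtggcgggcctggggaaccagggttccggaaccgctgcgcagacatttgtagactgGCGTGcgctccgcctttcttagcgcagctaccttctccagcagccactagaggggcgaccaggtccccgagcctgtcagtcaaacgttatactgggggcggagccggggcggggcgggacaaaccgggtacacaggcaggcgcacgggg

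ALDOA (chr7:126799205-126799504, minus strand): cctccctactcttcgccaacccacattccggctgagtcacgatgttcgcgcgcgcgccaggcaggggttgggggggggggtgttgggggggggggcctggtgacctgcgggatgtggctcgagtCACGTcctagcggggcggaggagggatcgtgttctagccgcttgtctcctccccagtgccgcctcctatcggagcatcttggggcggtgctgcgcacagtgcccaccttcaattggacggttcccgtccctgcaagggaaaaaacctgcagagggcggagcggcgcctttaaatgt

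PGK1 (chrX:106186850-106187149, plus strand): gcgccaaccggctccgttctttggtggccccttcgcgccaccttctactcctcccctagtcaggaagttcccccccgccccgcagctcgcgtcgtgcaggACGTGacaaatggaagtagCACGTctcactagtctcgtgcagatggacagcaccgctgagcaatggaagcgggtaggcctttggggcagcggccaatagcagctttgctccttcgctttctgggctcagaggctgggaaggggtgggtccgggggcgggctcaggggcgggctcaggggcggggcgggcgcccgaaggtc

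LDHA (chr7:46845554-46845853, plus strand): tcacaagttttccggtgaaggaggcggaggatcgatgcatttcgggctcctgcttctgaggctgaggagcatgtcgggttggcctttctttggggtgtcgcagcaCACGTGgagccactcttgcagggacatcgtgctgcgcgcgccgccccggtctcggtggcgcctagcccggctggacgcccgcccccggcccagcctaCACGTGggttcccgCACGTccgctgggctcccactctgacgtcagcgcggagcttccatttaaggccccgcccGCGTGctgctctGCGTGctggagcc

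ACGTG occurred in 19.6% and GCGTG in 32.4% of all 32851 promoter windows of the same length, and one or the other in 43.8%. All 8 enzymes had a window in the table, PKM2 under its current symbol Pkm. Of the 8 enzymes 7 had at least 1 window with either motif, and TPI1 had none. Counted by window, as the shares are, 9 of the 12 windows of the 8 enzymes held either motif. Among these 9, 2 windows of ALDOA overlap (chr7:126799205-126799504 and chr7:126799129-126799428) and hold the same 1 match, so they are not separate. Enzymes whose brightest probe was not called on days 4 to 6 held them too, with 4 matches to GCGTG in PFKP, 1 to ACGTG and 2 to GCGTG in PGAM1, and 2 to ACGTG in 1 of 2 windows of PKM2. The LDHA window above holds both motifs, that of PGK1 holds ACGTG only, and that of PFKL holds GCGTG only. ALDOA has 3 windows, of which 1 holds no match, and the other of the 2 windows of LDHA holds GCGTG but no ACGTG. The repeat of AGGTCA in the same orientation with a single base between the copies, the textbook form of the PPARγ:RXR response element, is in 0.0396% of all windows and in none of those of the 8 enzymes. These matches describe letters in a short window and are not sites.

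**Figure D1:**
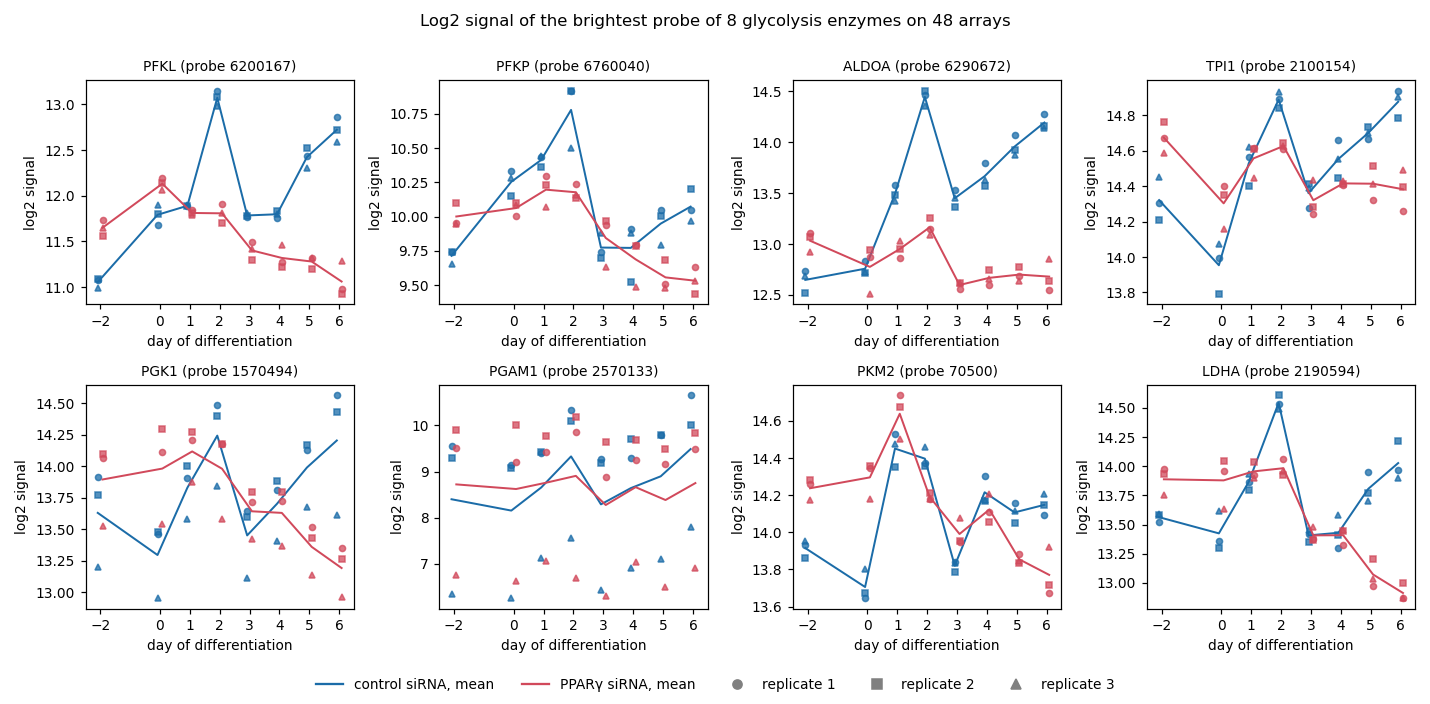
Log2 signal (y axis) of the brightest probe of each of the 8 enzymes on each of 48 arrays, by day of differentiation (x axis). Points are arrays, with the shape giving the replicate, and lines join the means of 3 replicates. ALDOA and PFKL of control siRNA cells stand above the PPARγ KD from day 1, with peaks on day 2, though PFKL differs by only -0.08 on day 1. In the PPARγ KD LDHA was called lower on days 2, 5 and 6, and PGK1 higher on day 0 and lower on days 5 and 6. PGAM1 shows replicate 3 (triangles) far below the other two.

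In control siRNA cells all 8 enzymes had a higher mean on day 2 than on day -2, and 7 of the 8 were called. PGAM1 rose by 0.93 (SE 0.19) and was not called (limma, Bonferroni adjusted p = 0.398). Of the 7, PFKL, PFKP, ALDOA and LDHA were called in every setting run. The other 3 calls were lost without scaling between arrays (TPI1 0.45, PGK1 0.50 and PKM2 0.36, limma, Bonferroni adjusted p = 1 each), those of TPI1 and PKM2 also without any 1 replicate (0.54 to 0.61 and 0.47 to 0.50), so that 4 to 5 of 8 were called with a replicate left out. Of the 11 probes, 10 probes of all 8 genes changed between days (limma F-test, Bonferroni), against 23.5% of all probes. Against day -2, 1 probe was higher on day 0 (4.01% of all probes were), 5 on day 1 (4.24%), 8 probes of 7 genes on day 2 (6.93%), 2 on day 3 (2.79%), 2 on day 4 (3.21%), 3 on day 5 (3.59%) and 5 on day 6 (4.11%). Averaged over the 8 enzymes, the centred control course stood at 0.75 on day 2, -0.17 on day 3 and 0.50 on day 6, the last day sampled. The highest control mean was on day 1 in PKM2, on day 6 in PGAM1 and on day 2 in the others. From day 2, the end of the insulin and rosiglitazone period, to day 3 the means of all 8 enzymes were lower by 0.53 to 1.29 (-1.29 to -0.53, median -0.999, against 0.01 over all probes), and from day 5 to day 6 all 8 were higher (0.04 to 0.59). These day-to-day steps are descriptions and were not tested.

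In PPARγ KD cells no probe was called higher than on day -2 on any day by limma with Bonferroni adjustment. Of all probes 0.971% to 3.36% were called higher, so that none of 11 lies near the share over the array. The rises of PFKL to day 0 (0.48, limma, Bonferroni adjusted p = 0.0605) and of PKM2 to day 1 (0.40, adjusted p = 0.118) fell short of the threshold. On some day 3 of 11 had an unadjusted p under 0.05 (39.4% of all probes), and 2 passed after Benjamini-Hochberg adjustment (23.5%). Called lower were 1 probe on day 3 (0.605% of all probes), 1 on day 4 (0.613%), 4 on day 5 (1.11%) and 6 of 11 on day 6 (1.92%). Between days 8 probes of 7 genes changed (F-test, 16.5% of all probes), and the step from day 2 to day 3 was downward in all 8 here too (-0.63 to -0.20, median -0.37, against 0.01 over all probes).

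**Figure D2:**
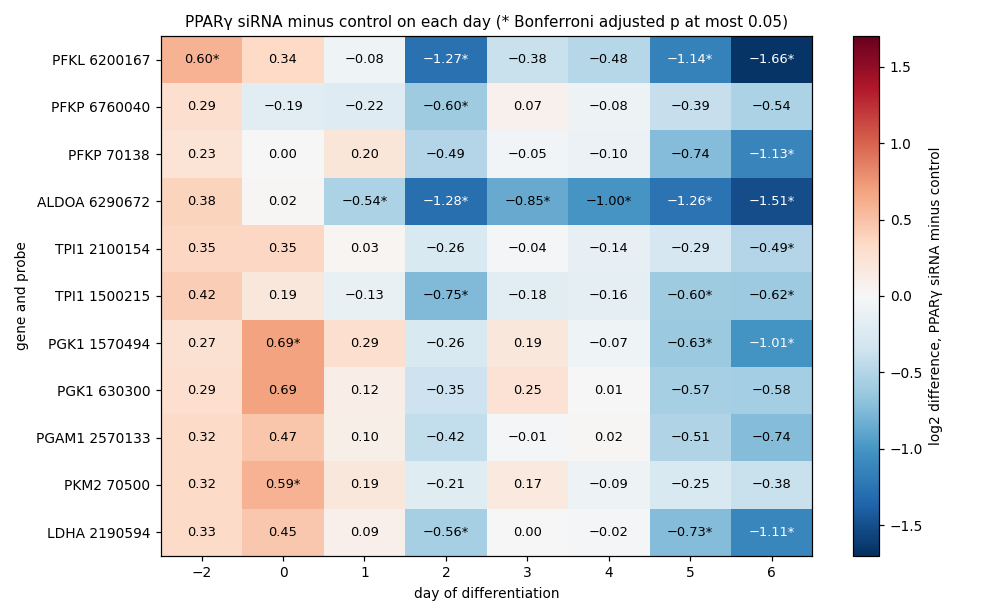
Log2 difference, PPARγ KD minus control siRNA, of all 11 probes (rows) on each day (columns). Blue and red shades give the sign on the colour scale, and stars mark probes called after Bonferroni adjustment. On day -2 all values are above 0 and on day 6 all are below 0.

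The sign of the knockdown effect changed along the course. On day -2 the 8 enzymes had a median difference of 0.32 against 0.01 over all probes. The KD arrays were above all control arrays in 8 of 11 probes (4.23% of all probes), though only 1 was called higher (0.187%). On day 0 the median was 0.40 against 0.07, with 5 probes above (5.03%), 1 below (5.45%) and 2 called higher (1.67%). On day 1 the median was 0.06 against -0.07, with 3 probes below (6.54%) and 1 called lower (1.49%).

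From day 2 the calls were all downward. On day 2 the median was -0.49 against -0.12 over all probes, with 8 of 11 probes below all controls (9.91%) and 5 called lower (4.18%). Over probes above background on at least 3 arrays the median stayed between -0.01 and 0.04 on all 8 days. On day 3 the median was -0.01 against -0.10 over all probes and 0.03 over those above background on at least 3 arrays, and on day 4 it was -0.09 against -0.05 and 0.03. Without scaling between arrays the day 3 median of the enzymes was 0.20, with 2 of 8 below 0, against 0.10 and 0.24. There were 2 probes below (5.94%) and 1 above (4.97%) on day 3, 3 below (5.54%) on day 4, and 1 called lower on each (2.29% and 2.13%). The gap opened again on day 5, with a median of -0.57 against -0.01, 9 of 11 probes below (6.72%) and 5 called (2.68%). On day 6 the median was -0.88 against 0.04, with 9 below (6.67%) and 7 probes of 6 genes called (3.09%).

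Over days -2 to 6 together, 4 of 11 probes were lower in the PPARγ KD (6.74% of all probes) and 0 of 11 were higher (6.37%), with a median of -0.15 against -0.03. At an unadjusted p under 0.05 limma had 7 of 11 lower (21% of all probes) and 0 higher (17.8%). Over days 4 to 6, 6 of 11 probes of 6 genes were lower (3.77%), with a median of -0.49 against -0.01. The effect on days 4 to 6 was below that on days 0 to 2 in 5 of 11 probes (2.82%), tested as an interaction in limma, with a median of -0.54 against 0.03. The change since day -2, which includes the difference already there on that day, was lower in the PPARγ KD than in control siRNA cells in 1 of 11 probes on day 1 (0.471% of all probes), 5 on day 2 (2.63%), 2 on day 3 (1.28%), 2 on day 4 (1.32%), 5 on day 5 (1.88%) and 9 on day 6 (2.09%). These comparisons share arrays and are given side by side. Without scaling between arrays, 86.4% of all calls on days 4 to 6 were lower in place of 70.9%, and 94.8% of the interaction calls in place of 77.6% (66.1% after quantile normalization). Without background correction 59.4% of the calls on days 4 to 6 were lower.

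PFKL is the liver-type subunit of phosphofructokinase, which commits fructose 6-phosphate to glycolysis. On day 2 its values in control siRNA cells were 13.15, 13.08 and 12.98, and in the PPARγ KD 11.91, 11.70 and 11.82. On day 6 they were 12.86, 12.72 and 12.58 in the controls and 10.98, 10.92 and 11.28 in the PPARγ KD. Every KD array lay below every control array of the same day from day 1 to day 6. On day -2 the order was the other way, with 11.08, 11.09 and 10.99 in the controls and 11.74, 11.56 and 11.65 in the PPARγ KD. The difference on day 1 was only -0.08 (SE 0.087) and was not called, nor were those on days 3 and 4 (-0.38 and -0.48). Without scaling between arrays the day 1 difference was 0.021.

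The differences in PFKL ran from 0.60 (SE 0.087, limma, Bonferroni adjusted p = 0.00104) on day -2 to -1.27 (adjusted p = 1.48e-12) on day 2 and -1.66 on day 6, a fold of 3.16 (adjusted p = 1.94e-16). In control siRNA cells PFKL rose 4.05-fold from day -2 to day 2 (adjusted p = 2.42e-19) and stood 3.18-fold above day -2 on day 6 (adjusted p = 1.69e-16), while in the PPARγ KD it fell by 0.59 to day 6. The highest of its 16 condition means, 13.07 ± 0.084 (SD, n = 3) in control cells on day 2, was followed by control days 6 and 5. Its lowest, control day -2 and KD day 6, differed by less than their SD. Over days 4 to 6 the effect was -1.09 (SE 0.063, fold 2.14, adjusted p = 6.51e-08), and over the whole course -0.51 (SE 0.031, adjusted p = 2.26e-14). Left out in turn, replicates 1, 2 and 3 each ended the call on day -2 (0.56, 0.65 and 0.57) and replicates 1 and 2 that of the fall to day 6 in the PPARγ KD (-0.50 and -0.56), and none the others. The day -2 call was also lost without scaling (adjusted p = 0.671) and with the replicate block fitted within each day (adjusted p = 0.245), and the call over the course in an additive model of siRNA and day (adjusted p = 1).

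PFKP, the platelet-type subunit of the same enzyme, moved less and its 2 probes differed. In its brighter probe the day 2 values were 10.91, 10.92 and 10.50 in control siRNA cells and 10.24, 10.14 and 10.16 in the PPARγ KD. On day 6 they were 10.05, 10.20 and 9.97 against 9.63, 9.43 and 9.53, again without overlap. The dimmer probe had 8.20, 8.15 and 7.75 on day 6 in control siRNA cells against 6.98, 6.85 and 6.88 in the PPARγ KD.

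The brighter PFKP probe was lower on day 2 (-0.60, SE 0.10, limma, Bonferroni adjusted p = 0.0253) and over the whole course (-0.21, SE 0.036, adjusted p = 0.035) but was not called over days 4 to 6 (-0.34, adjusted p = 1). The dimmer one was called over days 4 to 6 (-0.66, SE 0.092, adjusted p = 0.0418) and on day 6 (-1.13, adjusted p = 3.12e-05), and not over the whole course (-0.26, adjusted p = 0.162). From day -2 to day 2 the brighter probe rose by 1.06 in control siRNA cells (adjusted p = 4.31e-08). The interaction between late and early days was -0.00 (SE 0.084, adjusted p = 1), with a 95% interval of -0.17 to 0.17. Both knockdown calls of the brighter probe were lost when replicate 1, 2 or 3 was left out (-0.20, -0.24 and -0.19 over the course, and -0.56, -0.51 and -0.73 on day 2), and likewise without scaling and with the block within each day (adjusted p = 1), the one over the course also after quantile normalization (-0.19, adjusted p = 0.199).

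ALDOA, the aldolase that splits the sugar bisphosphate into triose phosphates, was called on more days than any other enzyme. On day 2 it read 14.47, 14.51 and 14.36 in control siRNA cells and 13.15, 13.25 and 13.09 in the PPARγ KD. On day 4 it read 13.80, 13.57 and 13.63 against 12.60, 12.75 and 12.66. On day 6 it read 14.28, 14.16 and 14.14 against 12.55, 12.64 and 12.86. The groups did not overlap on any day from 1 to 6, and on day -2 the KD arrays (13.11, 13.07 and 12.92) were the higher ones against 12.73, 12.52 and 12.69.

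ALDOA was lower in 19 of 24 pairs of arrays of 1 day and replicate. It was called on each day from 1 to 6, with differences of -0.54, -1.28, -0.85, -0.998, -1.26 and -1.51, the last a fold of 2.85 (limma, Bonferroni adjusted p = 3.29e-14). It was lower by 2.39-fold over days 4 to 6 (-1.26, SE 0.057, adjusted p = 1.69e-09) and over the course by 1.69-fold (-0.75, SE 0.033, adjusted p = 2.87e-19). In control siRNA cells it rose 3.47-fold from day -2 to day 2 (adjusted p = 1.07e-16), while in the PPARγ KD no day differed from day -2 beyond the threshold (0.13 on day 2 and -0.35 on day 6). The day 1 call was lost without replicate 1, 2 or 3 (-0.46, -0.55 and -0.62) and with the block within each day (adjusted p = 0.937), and the call of the interaction (-0.65, adjusted p = 4.25e-06) without replicate 1 (-0.59, adjusted p = 0.11). Without scaling between arrays the calls on day 1 (-0.44, adjusted p = 1), day 3 (-0.65, adjusted p = 1) and day 4 (-0.94, adjusted p = 0.051) and that of the interaction (-0.70, adjusted p = 0.248) were lost.

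TPI1, which interconverts the triose phosphates, moved little. In its brighter probe the day 6 values were 14.94, 14.79 and 14.90 in control siRNA cells and 14.26, 14.40 and 14.49 in the PPARγ KD, and on day 2 they were 14.89, 14.84 and 14.93 against 14.61, 14.65 and 14.63. The dimmer probe had 9.61, 9.64 and 9.74 against 8.87, 8.78 and 9.10 on day 2. It had 8.87, 8.91 and 9.01 against 8.21, 8.11 and 8.60 on day 6. Control arrays were above KD arrays without overlap in both probes on both days.

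The brighter TPI1 probe was called on day 6 alone (-0.49, SE 0.086, limma, Bonferroni adjusted p = 0.0376), and not over days 4 to 6 (-0.31, adjusted p = 0.403). The dimmer one was called on day 2 (-0.75, adjusted p = 2.44e-07), day 5 (-0.60, adjusted p = 5.11e-05) and day 6 (-0.62, adjusted p = 3.02e-05), over days 4 to 6 (-0.46, SE 0.052, adjusted p = 0.0023) and over the course (-0.23, SE 0.027, adjusted p = 1.09e-05). The day 6 call of the brighter probe was lost without replicate 1, 2 or 3 (-0.40, -0.55 and -0.54), without scaling (-0.58, adjusted p = 1) and with the block within each day (adjusted p = 1).

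PGK1, phosphoglycerate kinase, makes the first ATP of the pathway's later steps. On day 0 its values were 13.46, 13.48 and 12.95 in control siRNA cells and 14.11, 14.29 and 13.54 in the PPARγ KD, higher in the PPARγ KD without overlap. On day 6 they were 14.57, 14.43 and 13.61 in the controls and 13.35, 13.26 and 12.96 in the PPARγ KD, the reverse order. In each of these sets the value of replicate 3 was the lowest, and over all days replicate 3 stood 0.50 below the others (-0.50).

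PGK1 was higher in the PPARγ KD on day 0 by 0.69 (limma, Bonferroni adjusted p = 8.3e-05) and lower on day 5 by 0.63 (-0.63, adjusted p = 0.000567) and day 6 by 1.01 (-1.01, adjusted p = 3.05e-09). Its effect on days 4 to 6 was -0.57 (SE 0.061, fold 1.49, adjusted p = 0.00103). The interaction between late and early days, -0.81 (SE 0.073, adjusted p = 5.77e-09), was the largest of the 8 enzymes. Against day -2, PGK1 was up in control siRNA cells on day 2 (0.61, adjusted p = 0.00101) and down in the PPARγ KD on day 6 (-0.70, adjusted p = 4.72e-05). Without the replicate block none of these calls remained (adjusted p = 1), and without replicate 1 or 2 the calls over days 4 to 6 (-0.54 and -0.53), on day 0 (0.70 and 0.62), on day 5 (-0.64 and -0.58), of the control rise (0.64 and 0.61) and of the KD fall (-0.70 and -0.64) were lost. Without scaling between arrays the calls on day 0 (0.54) and day 5 (-0.66) were lost. The dimmer PGK1 probe was above background on 3 of 48 arrays, and with the mean of both probes no knockdown call remained (-0.48 over days 4 to 6, adjusted p = 0.994).

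PGAM1, a phosphoglycerate mutase, had the least certain values. Its probe was above background on 39 of 48 arrays, on 16 of 16 in replicates 1 and 2 and on 7 of 16 in replicate 3, where its signal was lower by 2.76 (-2.76). On day 6 it read 10.66, 10.01 and 7.80 in control siRNA cells against 9.50, 9.84 and 6.92 in the PPARγ KD, lower in all 3 pairs. The difference on that day, -0.74 (SE 0.19), was not called (limma, Bonferroni adjusted p = 1), nor was any other between the siRNAs. In control siRNA cells it was higher on day 6 than on day -2 by 1.09 (adjusted p = 0.0283), a call lost without replicate 1 (1.08) or 3 (0.91) and without scaling (0.94).

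PKM2, the pyruvate kinase that makes pyruvate and the last ATP, differed most on day 0. Its values then were 13.64, 13.67 and 13.80 in control siRNA cells and 14.35, 14.36 and 14.18 in the PPARγ KD, with no overlap. On day 6 they were 14.09, 14.15 and 14.21 against 13.67, 13.72 and 13.92, the controls above. PKM2 was higher in the PPARγ KD on day 0 by 0.59 (SE 0.075, limma, Bonferroni adjusted p = 4.95e-05), and on day 6 the difference of -0.38 was not called (adjusted p = 0.319). The change between early and late days was -0.43 (SE 0.061, adjusted p = 0.000601). Its highest mean in control siRNA cells was on day 1, up by 0.54 from day -2 (adjusted p = 0.000439), with day 2 lower by less than the SD of day 1. The PPARγ KD also had its highest mean on day 1, above that of the controls (14.64 against 14.45). Its rise from day -2 was 0.40 and was not called (limma, Bonferroni adjusted p = 0.118). The difference between the rises in PPARγ KD and control siRNA cells, -0.14, was not called either. Without replicate 1 or 2 the calls on day 0 (0.53 and 0.54) and of the interaction (-0.38 and -0.38) were lost, as both were without scaling (0.44 and -0.47) and that of the interaction with the block within each day (adjusted p = 0.1004).

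LDHA, the main lactate dehydrogenase subunit of muscle type, closes the route. On day 2 it read 14.53, 14.61 and 14.49 in control siRNA cells and 14.06, 13.93 and 13.96 in the PPARγ KD. On days 3 and 4 the groups overlapped, with differences of 0.00 and -0.02. On day 6 it read 13.97, 14.21 and 13.90 against 12.87, 12.9998 and 12.87, so that all controls were above all KD arrays.

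LDHA was lower in the PPARγ KD on day 2 (-0.56, SE 0.099, limma, Bonferroni adjusted p = 0.0428), day 5 (-0.73, adjusted p = 0.000185) and day 6 (-1.11, fold 2.16, adjusted p = 3.83e-09). Across days 4 to 6 it was lower by 1.54-fold (-0.62, SE 0.059, adjusted p = 0.000177). Over the whole course, where 12 of 24 pairs were lower and 12 higher, it was not called (-0.19, adjusted p = 0.0568). The PPARγ KD cells lost LDHA signal with time, by 0.97 from day -2 to day 6 (-0.97, limma, adjusted p = 1.61e-07). Control siRNA cells gained 0.98 to day 2 (adjusted p = 1.35e-07) and stood at -0.16 and -0.13 against day -2 on days 3 and 4. On day 6 they were 0.46 above day -2, which was not called (adjusted p = 0.886). Without replicate 1 or 2 the call over days 4 to 6 was lost (-0.59 and -0.64, adjusted p = 0.074 and 0.086), as was that of the interaction of -0.62 (-0.55 and -0.59). The day 2 call was lost without any 1 replicate (-0.61, -0.50 and -0.58) with the block within each day (adjusted p = 1) and after quantile normalization (-0.52, adjusted p = 0.109), and that of day 5 without replicate 1 (-0.61). Without scaling the calls on day 2 (-0.45), on day 5 (-0.77) and of the interaction (-0.66) were lost.

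**Figure D3:**
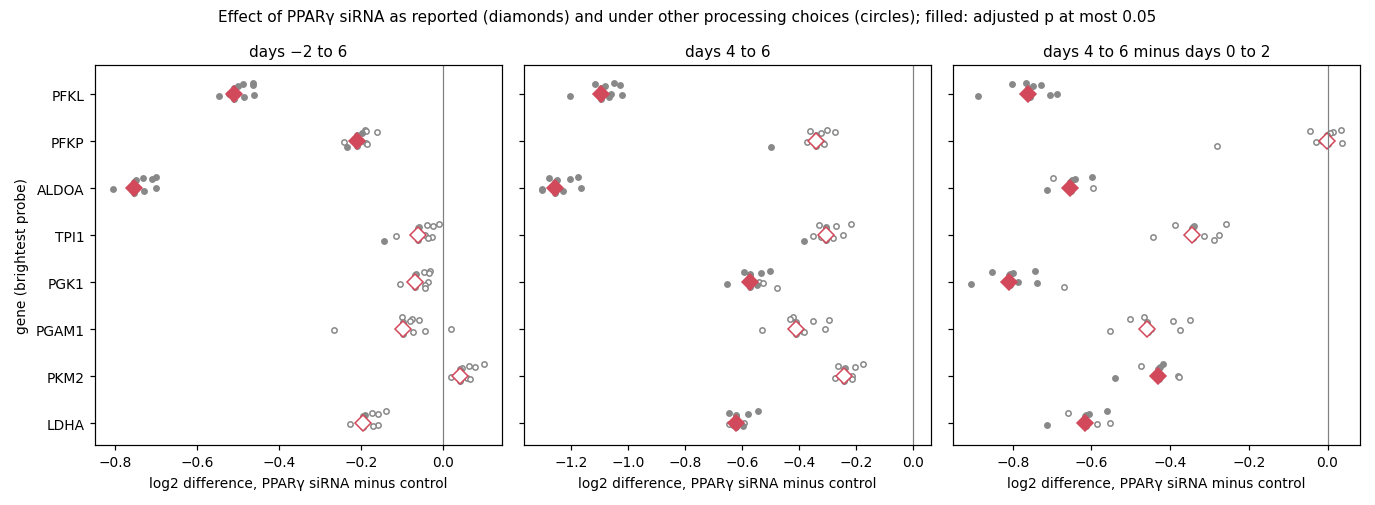
Log2 difference, PPARγ KD minus control siRNA (x axis), of the brightest probe of each enzyme over days -2 to 6, over days 4 to 6 and as the change from days 0 to 2 to days 4 to 6. Diamonds are the values reported, circles those under other processing choices or without 1 replicate, and filled symbols have an adjusted p of at most 0.05. ALDOA and PFKL are filled throughout over days 4 to 6, while PGK1 and LDHA have open circles there.

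The enzymes resembled each other over the 16 combinations of siRNA and day. Pearson correlations of the condition means ran from 0.37 (PFKP with TPI1) to 0.92 (PGK1 with LDHA) over 28 pairs, with a median of 0.69. Second probes of PFKP, TPI1 and PGK1 followed the brightest probe of their gene with 0.78, 0.74 and 0.90. That of PGK1 was above background on only 3 of 48 arrays. All these values share arrays and scaling. Among 7113 other probes above background on all arrays, the 5 nearest to the mean profile of the 8 enzymes were CCDC47 (0.91), MIF (0.91), LOC100042427 (0.91), SNURF (0.90) and EGLN3 (0.90), where the median was 0.011 and the 95th percentile 0.70.

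**Figure D4:**
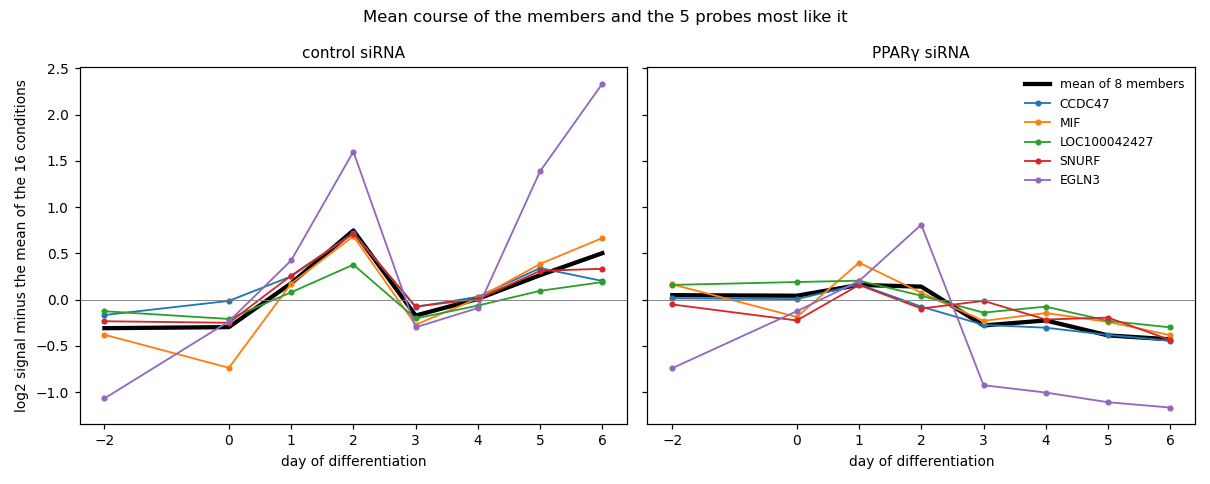
Mean centred log2 course (y axis) of the 8 enzymes and of the 5 most similar other probes by day (x axis), for control siRNA and PPARγ KD. In control cells all lines have a crest on day 2 and stand higher on day 6 than on day 3, and in PPARγ KD cells all lie below 0 on days 5 and 6.

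EGLN3, an oxygen-sensing prolyl hydroxylase that hypoxia induces, had a difference of -2.30 over days 4 to 6 (SE 0.10), and MIF, a cytokine, one of -0.61 (SE 0.057). Both were chosen for their likeness to the enzymes on arrays that include those days, so these values are descriptions.

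Other isozymes of the route were mostly dim. The list held 18 genes with 23 probes, of which 15 were above background on no array. Over the course 2 of 23 probes were lower in the PPARγ KD (6.74% of all probes) and 2 higher (6.37%), near the shares over the array, with a median of -0.03, equal to that of all probes. The called probes were all among the 8 above background on at least 3 arrays. The median of these 8 was 0.04, against 0.02 over all probes above background on at least 3 arrays. PGM2, a phosphoglucomutase, was lower by 0.58 (-0.58, limma, Bonferroni adjusted p = 1.88e-16) and GPI1, glucose 6-phosphate isomerase, by 0.19 (-0.19, adjusted p = 0.00851, -0.57 over days 4 to 6). The enolases ENO2 (0.35, adjusted p = 1.65e-08) and ENO3 (0.26, adjusted p = 1.14e-05) were higher. GAPDH was lower on late than on early days (-0.42, adjusted p = 0.00249). Without any 1 replicate the course call of GPI1 (-0.15, -0.23 and -0.20) and the call of GAPDH (-0.35, -0.43 and -0.49) were lost, that of ENO3 without replicate 2 (0.26), and that of GPI1 over days 4 to 6 without replicate 1 or 3 (-0.51 and -0.57). Without scaling and without the replicate block the course call of GPI1 and that of GAPDH were lost (adjusted p = 1), as was that of ENO3 without scaling (adjusted p = 0.568).

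Among regulators and transporters, 17 genes with 22 probes, 5 were lower over the course (6.74% of all probes) and 2 higher (6.37%), with a median of -0.05. SLC2A4, the insulin-responsive glucose transporter GLUT4, exceeded background on 9 of 9 arrays of control siRNA cells on days 4 to 6 and on 0 of 9 of the PPARγ KD, and was at least 5.43-fold lower in the PPARγ KD (adjusted p = 7.82e-11), with measured means of 8.96 and 5.42. PFKFB3, which makes the activator of phosphofructokinase, was lower by 1.19 (-1.19, limma, Bonferroni adjusted p = 2.11e-27). PDK1 and PDK4, kinases that restrain the mitochondrial oxidation of pyruvate, went opposite ways, at -0.27 (adjusted p = 0.0018) and 0.63 (adjusted p = 3.5e-12). The other calls were in probes above background on few arrays, MYC (-0.49, 16 of 48), SLC16A3 (0.29, 4 of 48) and PDK2 (-0.38, 0 of 48). Over days 4 to 6, SLC2A4, PFKFB3 (-1.41), PDK1 (-0.76) and PFKFB4 (-0.50) were lower, 4 of 22 probes (3.77% of all probes).

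Of 7 genes that run the opposite direction or draw on its intermediates, GPD1, which makes glycerol 3-phosphate, was lower by 3.65 (-3.65, limma, Bonferroni adjusted p = 1.31e-37) and PCX, pyruvate carboxylase, by 2.02 (-2.02, adjusted p = 3.95e-29). These were 2 of 7 probes called lower over the course (6.74% of all probes), with 0 higher (6.37%) and a list median of -0.06. Only GPD1 and PCX were above background on at least 3 arrays. Hypoxia-responsive genes, 18 genes with 25 probes, had 5 lower (6.74% of all probes) and 2 higher (6.37%) over the course, with a median of -0.15. Lower were EGLN3 (-1.01), VEGFA (-0.44), HMOX1 (-0.42), MXI1 (-0.36) and BHLHB2 (-0.24), and higher were ADM (0.48) and P4HA1 (0.20). Over days 4 to 6 the median was -0.24 and 5 were lower (3.77% of all probes), EGLN3 (-2.30), ANKRD37 (-0.995), VEGFA (-0.61), EGLN1 (-0.51) and HMOX1 (-0.40). The calls of PDK1 over the course, HMOX1 and PFKFB4 over days 4 to 6 were lost without any 1 replicate (PDK1 -0.24, -0.33 and -0.26, HMOX1 -0.36, -0.38 and -0.47, PFKFB4 -0.51, -0.47 and -0.53), that of VEGFA over the course without replicate 1 (-0.37) and over days 4 to 6 without replicates 1 or 2 (-0.56 and -0.59), and that of PDK1 over days 4 to 6 without replicate 2 (-0.74). With the block within each day the first 3 were lost too (adjusted p = 0.15, 0.286 and 0.0532), and without any replicate block all those named except that of PFKFB4 were lost (adjusted p = 0.0641 to 1), as was that of ADM over the course (adjusted p = 1).

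**Figure D5:**
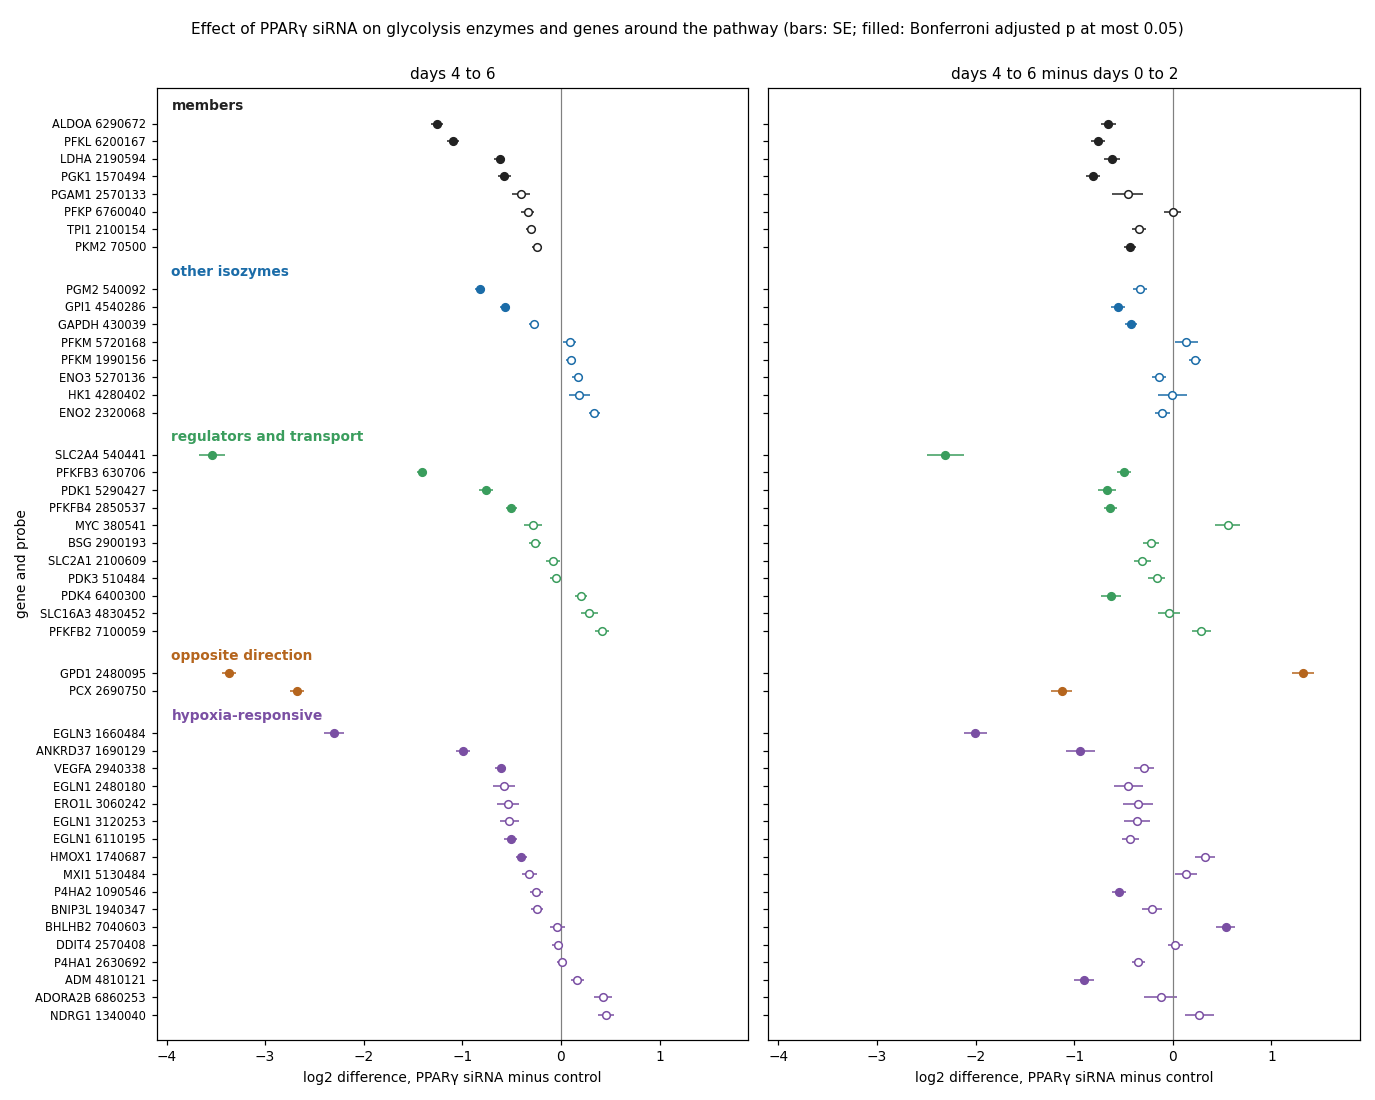
Log2 difference, PPARγ KD minus control siRNA (x axis, bars SE), of probes above background on at least 3 arrays, by group (y axis), for days 4 to 6 and for days 4 to 6 minus days 0 to 2. Filled points were called after Bonferroni adjustment. The enzymes lie between -1.26 and -0.24 on days 4 to 6, while GPD1, PCX, SLC2A4 and EGLN3 lie below -2.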

How the data were processed

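Expression was measured on 48 Illumina MouseRef-8 arrays, 3 replicates for each siRNA and day. The deposited intensity values are mean bead intensities that the authors exported from BeadStudio without normalization. The deposited detection score is a fraction that was turned into a detection p by subtracting it from 1, and the authors' bead counts per probe had medians of 26 to 44 for the 11 probes. Depth has no counterpart here, and the number of arrays limits the precision.

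Intensities were background corrected with normexp from the detection p-values (limma 3.58.1 in R 4.3.3, offset 16), scaled on probes between the 50th and 90th percentile whose rank moved by at most 0.05 (scale factors 0.73 to 1.58), and log2 transformed. limma fitted a mean for each siRNA and day with the replicate number as a block, since the study removed a batch effect, and the 18 arrays of days 4 to 6 were fitted on their own. Same-numbered arrays of 1 day deviated together over probes above background (correlations 0.544 to 0.914 over 24 pairs). Over all probes the correlations were 0.0239 to 0.901, with 23 of 24 above 0.1. P-values were Bonferroni adjusted over 24613 probes with a threshold of 0.05. Other normalizations, background settings, filters, blocks, adjustments, variance models and left-out replicates were tried. The scripts were tested on simulated data.

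Genes named are the 10 enzymes by their brightest probe with other probes beside it, members of the pathway lists that passed over days -2 to 6 or whose level a result turns on, and the 5 probes most like the enzymes. The enzymes and all lists were chosen with earlier results of these data known. Marker lists were adipocyte, fibroblast, macrophage, endothelial and muscle genes. In the housekeeping list HPRT1 was lower and B2M higher in the PPARγ KD, with mean levels of 10.84 to 11.12 on control and 10.82 to 11.14 on KD arrays. Promoter windows came from RefSeq (GRCm38.p6).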

Additional observations from a re-analysis of the deposited data

Results flagged for a closer look

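The effect of the PPARγ siRNA differed between times in the following enzymes, each tested as an interaction in limma with Bonferroni adjustment over all probes. Between days 4 to 6 and days 0 to 2 the effect differed by -0.76 in PFKL, -0.65 in ALDOA, -0.81 in PGK1, -0.43 in PKM2 and -0.62 in LDHA.

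The change since day -2 also differed between PPARγ KD and control siRNA cells. For PFKL the difference was -1.86 on day 2, -0.98 on day 3, -1.07 on day 4, -1.74 on day 5 and -2.26 on day 6. For ALDOA it was -0.93 on day 1, -1.66 on day 2, -1.24 on day 3, -1.38 on day 4, -1.64 on day 5 and -1.90 on day 6. For LDHA it was -0.89 on day 2, -1.06 on day 5 and -1.44 on day 6, and for PGK1 it was -0.90 on day 5 and -1.28 on day 6. For PFKP it was -0.89 on day 2 and -0.83 on day 6, for TPI1 -0.85 on day 6 and for PKM2 -0.70 on day 6. All 8 of these enzymes but PGAM1 had at least 1 such value, and each change since day -2 includes the difference already there on that day. The calls on day 6 of PFKP were lost without replicate 1, 2 or 3 (-0.93, -0.68 and -0.87), and those of PKM2 (-0.68 and -0.63) and TPI1 (-0.75 and -0.80) without replicate 1 or 2. Without scaling between arrays these 3 calls were lost too (PFKP -0.89, PKM2 -0.76 and TPI1 -0.91), and that of PGK1 on day 6 was lost without the replicate block. On day 6 itself the PKM2 difference of -0.38 was not called.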

How the results depend on the processing

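Of the values of single genes under other settings 1839 kept their direction and side of the threshold, 208 lost a call, 77 gained one and 39, none of them called, changed sign. Over days -2 to 6 (3227 probes called, 4 of them glycolysis probes), no scaling gave 1587 and 2, no replicate block 1769 and 2, Benjamini-Hochberg 7605 probes, an additive model 1 glycolysis probe, and leaving out a replicate 1749 to 2591 and 2 to 3. Over days 4 to 6 (1307 and 6) no replicate block gave 568 and 3, Benjamini-Hochberg 5125 and 11, and leave-one-out 547 to 902 and 2 to 4. For the change of the effect (894 and 5) no scaling gave 401 and 2, no replicate block 426 probes, a replicate block by day 595, Benjamini-Hochberg 2939 and 9, and leave-one-out 331 to 692 and 2 to 5. For change between days, control cells (5776 and 10) had 2742 and 6 without scaling, 3210 without the replicate block, 9813 with Benjamini-Hochberg and 2832 to 4072 and 6 to 9 in leave-one-out. PPARγ KD cells (4068 and 8) had 1827 without scaling, 2043 without the block, 8876 with Benjamini-Hochberg and 1628 to 2571 and 3 to 6 in leave-one-out. Daily calls (23) became 10 without scaling, 13 without the block, 44 with Benjamini-Hochberg and 11 to 18 in leave-one-out. Calls of change since day -2 (24) became 12, 18, 43 and 11 to 22. By Spearman 3 of the 5 most similar probes were shared. ALDOA was called over days -2 to 6 and over days 4 to 6 and PFKL over days 4 to 6 in all settings run, and PFKL over days -2 to 6 in all but the additive model. The cause of these shifts was not tested.

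The values that changed sign, by setting, were as follows. After quantile normalization they were PFKP late minus early 0.034, TPI1 day 3 0.052, PGK1 day 4 0.0073, PKM2 day 4 0.012, LDHA day 4 0.073 and PGAM1 KD day 6 against day -2 -0.034. Without scaling they were ALDOA day 0 -0.13, PFKL day 1 0.021, TPI1 day 3 0.16, PGAM1 day 3 0.19, LDHA day 4 0.035 and PGAM1 KD day 6 against day -2 -0.18. Without background correction they were PFKP late minus early 0.013, ALDOA day 0 -0.014, TPI1 day 3 0.029, PGAM1 day 3 0.014 and LDHA day 4 0.038. With an offset of 50 they were PFKP late minus early 0.0067, ALDOA day 0 -0.012 and PGAM1 day 3 0.013. With scaling on probes above the 90th percentile, chosen after seeing the data, they were PFKP late minus early 0.0011 and PGAM1 day 3 0.012. With the mean of a gene's probes there was TPI1 day 1 -0.051. Leaving out each replicate in turn gave ranges that held both signs for PGAM1 over the course -0.27 to 0.021, PGAM1 day 3 -0.25 to 0.17, ALDOA day 0 -0.090 to 0.14, TPI1 day 1 -0.061 to 0.13, PGAM1 day 1 -0.019 to 0.18, PFKP day 3 -0.028 to 0.23, TPI1 day 3 -0.081 to 0.0045, LDHA day 3 -0.014 to 0.021, GAPDH over the course -0.0024 to 0.050, PFKP late minus early -0.029 to 0.036, PFKP day 4 -0.26 to 0.073, PGAM1 day 4 -0.039 to 0.055, LDHA day 4 -0.049 to 0.032 and PGAM1 KD day 6 against day -2 -0.039 to 0.077. No scaling moved the median of all probes on day 3 from -0.10 to 0.10, on day 0 from 0.07 to -0.08 and on day 2 from -0.12 to -0.01. The array chip could not be used as a block, since the headers do not name it.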
